A study of Arabidopsis thaliana with 2 samples.

Results

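The membrane trafficking genes described here are the named genes of the array whose symbol begins with PRA1, RABA to RABH, SYP, VAMP, VPS or EXO70, or with SEC and a digit. They were picked by name and not by value, though with earlier results of these data known. There were 26 such genes, with 27 probes, among 8819 named genes and 21426 tested rows (a row is a named gene averaged over its probes, or 1 unnamed probe). The genes comprised 9 of the PRA1 family, 10 VPS genes and 7 SEC genes. No probe named here carried a RAB (A to H), SYP, VAMP or EXO70 symbol, so the RAB GTPases and the SNARE families under those names were not analysed here, and the exocyst is described through its SEC subunits. The current gene table holds 155 genes with these names, of which 39 are RABs, 23 SYPs, 11 VAMPs and 23 EXO70s. Of the names that were measured it holds 16 PRA1, 29 VPS and 14 SEC genes, so each family was seen only in part.

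Vesicles carry proteins and wall material between the endoplasmic reticulum, the Golgi, the vacuole and the plasma membrane. RAB GTPases, switched on by exchange factors, mark each membrane, and PRA1 proteins are small membrane proteins that bind prenylated RABs. Tethers such as the exocyst hold a vesicle at its target, SM (Sec1/Munc18) proteins assist the SNAREs that fuse it, and ESCRT complexes bud cargo into multivesicular bodies on the way to the vacuole. In seeds these routes fill the storage vacuoles and build the cell plates of dividing cells.

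The series compared siliques (the seed-bearing fruits) of rge1-1 with siliques of wild-type Col-0 Arabidopsis thaliana, both at 12 DAF and both without treatment. The rge1-1 mutant is retarded in embryo growth. RGE1, also called ZHOUPI, encodes a transcription factor of the endosperm, whereas a silique sample pools fruit wall, seed coat, endosperm and embryo. Fewer cells of a type and less RNA per cell therefore cannot be told apart. There were 2 arrays, labelled replicates 1 and 2, and on each the rge1-1 RNA carried Cy3 and the Col-0 RNA carried Cy5. Nothing in the labels says that the replicates are different plants, and the tests below know only how far these 2 arrays lie apart, which may reflect technique alone.

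Every value below is a log2 ratio of the 2 channels, computed from the deposited log ratios on the assumption that these have base 10. The sign is the one deposited. Which genotype stands on top of the ratio is not written in the table: by the scanner software's usual form a positive value would be Col-0 over rge1-1, and by the sample titles the reverse. No sign is therefore assigned to a genotype, and a probe's preference for 1 dye cannot be told apart from genotype, because 0 arrays had swapped dyes. A ratio holds no expression level, so neither the tissue nor the abundance of a gene could be checked. The arrays were not centred: the median of all rows was 0.16 on replicate 1 and 0.02 on replicate 2, which moves the mean of both by 0.09. The ratios of the 2 arrays had median absolute deviations of 0.28 and 0.18.

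None of the 26 trafficking genes passed the test of a difference between rge1-1 and Col-0 siliques, and their ratios lay about as far from equal as those of named genes at large. With limma (ratio against 0, Benjamini-Hochberg adjusted over all rows), 0 of 26 had an adjusted p under 0.05, as did 0.0% of the 21426 rows. The smallest adjusted p among them was 0.665. Before adjustment, limma gave 0 of the 26 a p under 0.05, against 6.6% of all rows and 6.54% of named genes. Robust limma and the unmoderated statistic also counted 0 of 26 there. Counted by size, 0 of 26 departed from equal by 1.5-fold or more on both arrays in the same sign, where 2.56% of named genes were, 0.964% positive and 1.6% negative. A share of 2.56% of 26 genes is less than 1 gene, so the count of 0 is near the background.

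Means ran from -0.28 for SEC5A to 0.46 for VPS9B. The median of the 26 means was 0.03, against 0.08 for all named genes, and it was -0.06 with each array centred on its median, against -0.0099. On replicate 1 the trafficking genes had a median of 0.14, against 0.16 for all named genes. On replicate 2 the median was -0.0090 for the trafficking genes and 0.02 for named genes. The median distance of a mean from 0 was 0.16 for the trafficking genes and also 0.16 for all named genes.

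**Figure D1:**
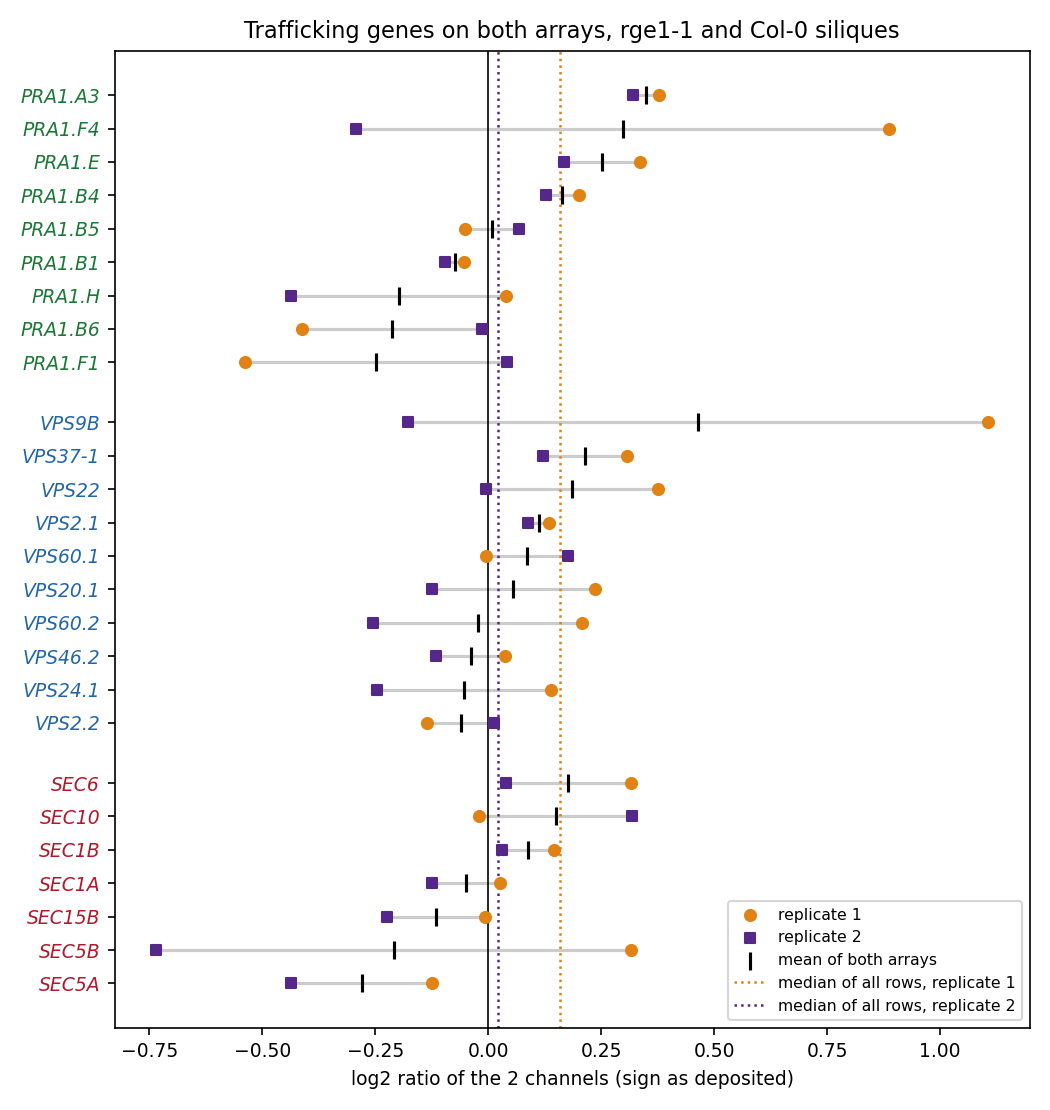
Log2 ratio of the 2 channels (x axis, sign as deposited) for each of the 26 trafficking genes (rows; PRA1 green, VPS blue, SEC red), with replicate 1 as circles, replicate 2 as squares, the mean as a black bar and the median of all rows on each array as a dotted line. For 15 of the 26 genes the 2 arrays lie on opposite sides of 0, with the widest gaps at VPS9B, PRA1.F4 and SEC5B.

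The 2 arrays often disagreed in sign. Of the 26 genes 7 were positive on both arrays, 4 negative on both and 15 of opposite sign, or 57.7%, against 38.5% of named genes. The 7 and the 4 were 26.9% and 15.4% of the 26, against 41.9% and 17.0% of named genes. Of those 15, 10 were positive on replicate 1 and negative on replicate 2. Relative to each array's own median, 14 of 26 lay on the same side on both arrays, or 53.8%, against 60.8% of named genes. Across the 26 genes, which share the 2 arrays and are not replicates, the ratios had a Pearson correlation of -0.13 between the arrays and a Spearman correlation of -0.04. Over all 8819 named genes these were 0.33 and 0.25. The distance between the arrays was not larger for the trafficking genes: its median was 0.25 for the 26 and 0.25 for named genes.

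**Figure D2:**
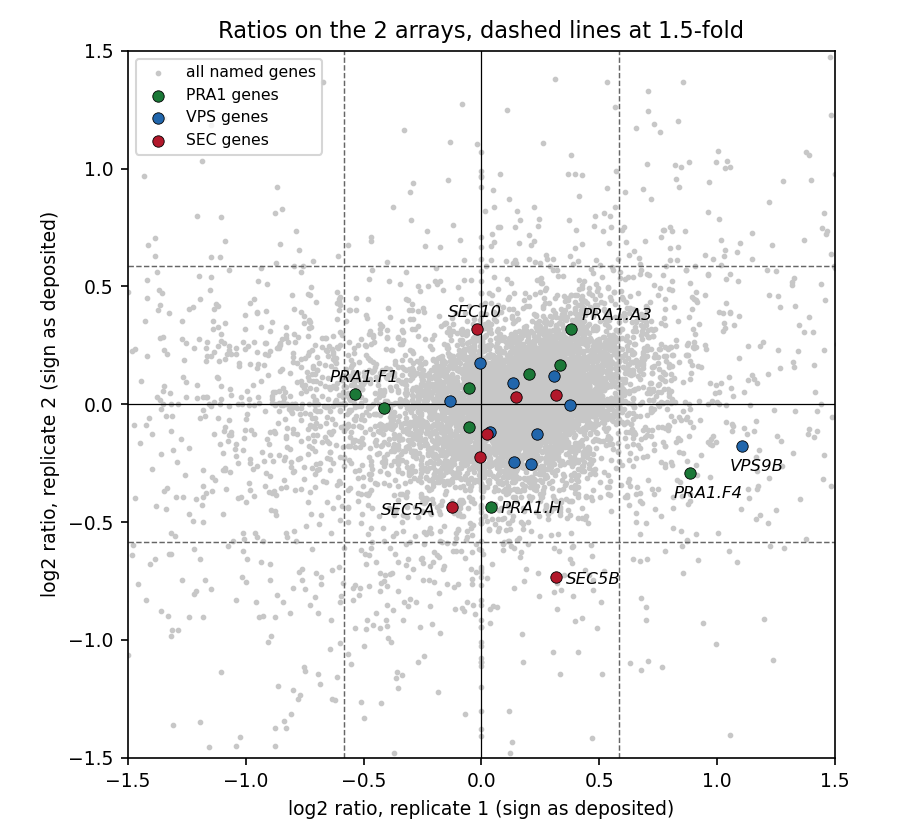
Log2 ratio on replicate 1 (x axis) against replicate 2 (y axis), signs as deposited, for named genes (grey) and the PRA1, VPS and SEC genes (coloured), with dashed lines at 1.5-fold. No trafficking gene reaches a corner beyond the lines on both axes, while VPS9B and PRA1.F4 pass the line on replicate 1 alone and SEC5B on replicate 2 alone; 251 named genes lie outside the plotted range.

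The PRA1 family spread to both sides of 0. Of its 9 measured genes, 3 were positive on both arrays, 2 negative on both and 4 of opposite sign, with a median of 0.0090 that became -0.08 with centring. PRA1.A3 (AT3G11397) was the highest of the family and had close values on both arrays, with 0.38 on replicate 1 and 0.32 on replicate 2. Its mean of 0.35 ± 0.04 (SD, n = 2), or 1.27-fold from equal, gave limma's smallest unadjusted p among the 26 genes, 0.0583 (adjusted p = 0.665), and lay above 90.8% of named genes. It was the 1 trafficking gene of 26 that departed from equal by 1.2-fold or more on both arrays in the same sign, where 10.2% of named genes were.

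PRA1.E (AT1G08770) stood at 0.34 and 0.17 on replicates 1 and 2, and PRA1.B4 (AT2G38360) at 0.20 and 0.13. Both were thus positive on both arrays, and both also stayed above the median of each array. Their means were 0.25 ± 0.12 and 0.16 ± 0.05 (SD, n = 2 each).

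The other 3 genes of the B group had means from -0.21 to 0.0090. PRA1.B6 (AT5G07110), whose protein is known to slow the exit of some cargo from the endoplasmic reticulum, had -0.41 on replicate 1 and -0.014 on replicate 2. PRA1.B1 (AT3G56110) had -0.05 and -0.10, and PRA1.B5 (AT5G01640) -0.05 and 0.07. The 4 measured B genes therefore did not share a sign, and the mean of PRA1.B5, 0.0090 ± 0.09 (SD, n = 2), turned to -0.08 with centring.

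The 2 measured F genes had opposite signs on replicate 1. PRA1.F1 (AT1G17700) had the lowest mean of the family, -0.25 ± 0.41 (SD, n = 2; limma adjusted p = 0.681), with -0.54 on replicate 1 and 0.04 on replicate 2. PRA1.F4 (AT3G13710), which acts in transport through the Golgi, had 0.89 on replicate 1, or 1.85-fold, and -0.29 on replicate 2, and its mean was 0.30 ± 0.83 (SD, n = 2). The mean of PRA1.F4 thus rests on replicate 1 alone. PRA1.H (AT4G27540) was near 0 on replicate 1, at 0.04, and at -0.44 on replicate 2, with a mean of -0.20 ± 0.34 (SD, n = 2).

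Another pair of PRA1 genes carries the family name only as a synonym and was not among the 26. PRA7, also PRA1.F2, had -0.06 on replicate 1 and -0.34 on replicate 2, and PRA8, also PRA1.F3, had -0.02 and 0.14. PRA8 lies close to PRA1.F4 on the chromosome, with 1 gene between them in the gene table. The 0.89 of PRA1.F4 on replicate 1 was not shared by its neighbour, at -0.02.

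VPS9B had the highest mean of the 26 genes and also the widest gap between the arrays. VPS9B (AT5G09320) is the paralogue of VPS9A, the exchange factor that switches on the RAB5-type GTPases of endosomes. It had 1.11 on replicate 1, or 2.15-fold, and -0.18 on replicate 2. Replicate 1 placed it above 98.5% of named genes and replicate 2 above 17.7%. Its mean was 0.46 ± 0.91 (SD, n = 2), with limma's adjusted p = 0.684.

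The RAB system could be followed a little further through genes of other names, taken from the list of other trafficking genes. ARA6 (RABF1), a RAB5-type GTPase of plants, had -0.73 on replicate 1 and 0.10 on replicate 2. The MON1-CCZ1 complex, which switches on RAB7-type GTPases at the vacuole, had 3 named genes with values of both signs. MON1 (AT2G28390) had 0.12 and 0.30, CCZ1A (AT1G16020) had -0.25 and -0.07, and CCZ1B (AT1G80910) had -0.43 and -0.95. CCZ1B was the lowest of all 22 other trafficking genes, with a mean of -0.69 ± 0.37 (SD, n = 2), 1.61-fold from equal, at an unadjusted limma p of 0.0368 and an adjusted p of 0.665.

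By their means over both arrays, the ESCRT genes spread less than the PRA1 and exocyst genes. On replicate 1 alone the VPS genes other than VPS9B ran from -0.14 to 0.38 and the PRA1 genes from -0.54 to 0.89. The 5 exocyst SEC genes ran from -0.12 to 0.32, so the order held there against PRA1 but not against these 5. With EXO84B the exocyst reached 0.49 on replicate 1, and with VPS36, named by synonym, the ESCRT genes reached 0.53. The 9 VPS genes other than VPS9B had means from -0.06 to 0.21 and a median of 0.06, or -0.04 with centring, while their median distance from 0 was 0.06, against 0.16 for named genes. None of these 9 reached 1.5-fold on either array, a size that 16.3% of named genes reached on replicate 1 and 6.47% on replicate 2. At those shares fewer than 2 of 9 genes would reach it on either array, so the count of 0 is near the background. Of the 9, 2 were positive on both arrays and 7 of opposite sign.

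VPS37-1 (AT3G53120), a subunit of ESCRT-I, which collects ubiquitinated cargo, was the highest of the 9 at 0.31 on replicate 1 and 0.12 on replicate 2. Its mean was 0.21 ± 0.13 (SD, n = 2; limma adjusted p = 0.665). The second VPS37 gene, VPS37-2 (AT2G36680, named by synonym), was alike at 0.33 and 0.22. Both VPS37 genes were thus positive on both arrays, as were 41.9% of named genes.

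VPS22 (AT4G27040), of ESCRT-II, was the 1 gene of the 26 with 2 probes. Its first probe had 0.48 on replicate 1 and -0.13 on replicate 2, and its second had 0.28 and 0.12. The probes agreed in sign on replicate 1 and not on replicate 2, and their means of 0.17 and 0.20 were close. Averaged, the gene stood at 0.19 ± 0.27 (SD, n = 2). VPS36 (AT5G04920, named by synonym), also of ESCRT-II, had the same pattern, with 0.53 on replicate 1 and -0.06 on replicate 2.

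ESCRT-III subunits assemble into the filament that pinches vesicles off into the multivesicular body. The 7 VPS genes of this complex had means from -0.06 to 0.11, and 1 of 7, VPS2.1, was positive on both arrays. VPS2.1 (AT2G06530) had 0.13 and 0.09 on replicates 1 and 2, and its paralogue VPS2.2 (AT5G44560) had -0.14 and 0.01. VPS2.2 had the lowest mean of all VPS genes, -0.06 ± 0.10 (SD, n = 2; limma adjusted p = 0.845). The paralogues differed by 0.27 on replicate 1 and by 0.08 on replicate 2, with VPS2.1 higher on both; this difference was not tested.

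Another 3 subunits were positive on replicate 1 and negative on replicate 2. VPS20.1 (AT5G63880) had 0.24 and -0.12, and VPS24.1 (AT5G22950) had 0.14 and -0.25. VPS46.2 (AT1G73030), which helps to sort auxin carriers for degradation in the embryo, had 0.04 and -0.12.

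The VPS60 genes, whose products are accessory subunits of the filament, ran in opposite ways. VPS60.1 (AT3G10640) had -0.0050 on replicate 1 and 0.18 on replicate 2, whereas VPS60.2 (AT5G04850) had 0.21 and -0.25. The VPS32-type subunits SNF7.1 and SNF7.2, from the list of other trafficking genes, had means of 0.05 ± 0.10 and 0.10 ± 0.02 (SD, n = 2 each).

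The exocyst, which tethers secretory vesicles to the plasma membrane, held the lowest mean of the 26 genes. Of the 5 SEC subunits, 1 was positive on both arrays, 2 were negative on both and 2 had opposite signs, and their median was -0.12, or -0.21 with centring. On replicate 2 their median was -0.22, against 0.02 for named genes, and on replicate 1 -0.0073, against 0.16. With 5 genes that were not chosen at random this is a description, and no single subunit passed limma's test.

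SEC5A (AT1G76850) and SEC5B (AT1G21170) encode the same kind of subunit and had the lowest means of the 5. SEC5A had -0.12 on replicate 1 and -0.44 on replicate 2, and its mean of -0.28 ± 0.22 (SD, n = 2), 1.21-fold from equal, was the lowest of all 26 (limma adjusted p = 0.665). With centring its mean was -0.37, and limma's unadjusted p was then 0.0444 (adjusted p = 0.618). SEC5B had 0.32 on replicate 1 and -0.73 on replicate 2. Its value on replicate 2 was 1.66-fold from equal and above only 2.86% of named genes. The pair was alike on replicate 2 only in sign and differed in sign on replicate 1.

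SEC15B (AT4G02350), whose counterpart in yeast binds the RAB GTPase on the vesicle, was negative on both arrays, at -0.0073 and -0.22. SEC6 (AT1G71820), a core subunit, was positive on both, at 0.32 and 0.04, and had the highest mean of the SEC genes, 0.18 ± 0.19 (SD, n = 2; limma adjusted p = 0.676). SEC10 (AT5G12370), another core subunit, had -0.02 and 0.32. SEC10 has a near-identical tandem copy in Arabidopsis, and whether its probe bound transcripts of both was not tested.

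EXO84B, the exocyst subunit on the list of other trafficking genes, stood above the SEC subunits. It had 0.49 on replicate 1 and 0.48 on replicate 2, a mean of 0.49 ± 0.0070 (SD, n = 2), or 1.40-fold. Limma gave it an unadjusted p of 0.0248 and an adjusted p of 0.665, so it did not pass either. The 6 measured subunits of the complex thus held 2 genes positive on both arrays, 2 negative on both and 2 of opposite sign, with means from -0.28 to 0.49. Their median was 0.02, or -0.07 with centring, against -0.12 and -0.21 for the 5 SEC subunits alone.

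SEC1A and SEC1B encode SM proteins related to KEULE, which assists membrane fusion at the cell plate. SEC1B (AT4G12120) had 0.15 on replicate 1 and 0.03 on replicate 2, and SEC1A (AT1G02010) had 0.03 and -0.12. SEC1B was the higher on both arrays, by 0.12 on replicate 1 and 0.16 on replicate 2; this difference was not tested. KEU itself had 0.37 and 0.07. The list symbol SLY1 matched AT4G24210, an F-box gene and not the SM protein of that name, with -0.14 and -0.32. The SNARE YKT61 was near 0 on both arrays, at 0.01 and 0.06.

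**Figure D3:**
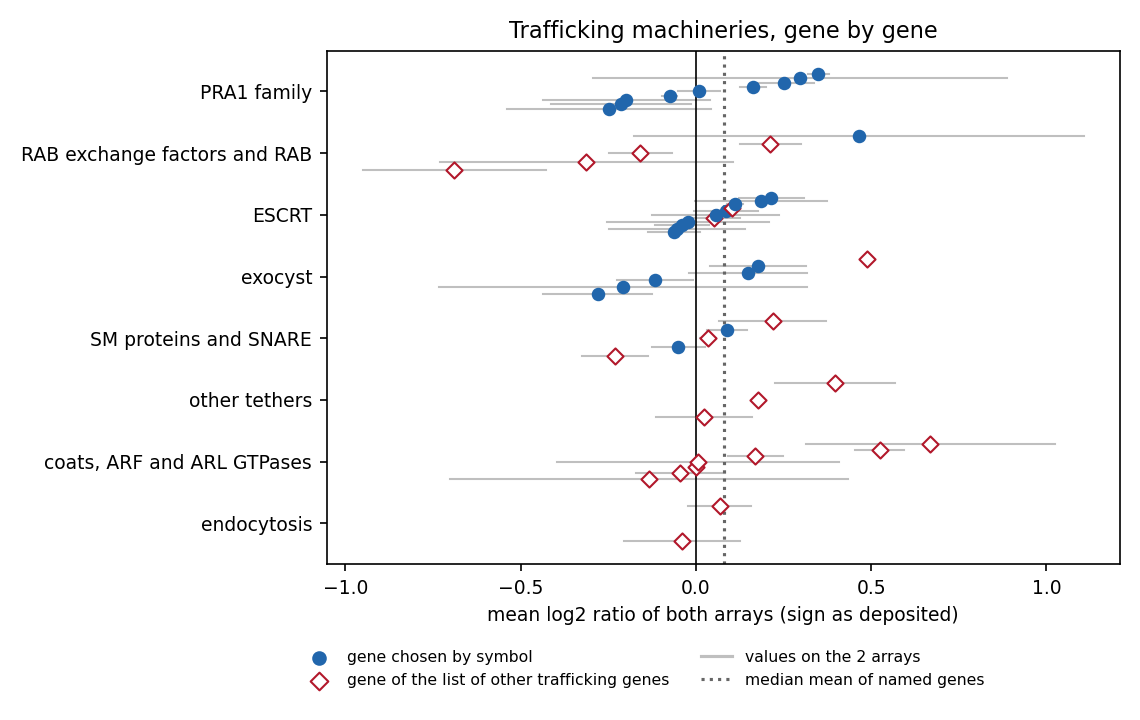
Mean log2 ratio of both arrays (x axis, sign as deposited) for the trafficking genes chosen by symbol (filled circles) and the genes of the list of other trafficking genes (open diamonds), grouped by machinery, with grey lines from one array's value to the other's and a dotted line at the median of all named genes. By the mean, the 11 ESCRT genes plotted run from -0.06 to 0.21, less far than the other groups of 5 or more genes. VPS37-2 and VPS36, ESCRT genes named by synonym, are not plotted and had means of 0.27 and 0.23. The group of SM proteins and SNARE includes AT4G24210, an F-box gene matched by the symbol SLY1. The exchange factors with ARA6 lie furthest apart, from -0.69 to 0.46.

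The list of other trafficking genes held 260 symbols, of which 22 matched a named gene outside the 26. Of these, 10 were positive on both arrays, 3 negative on both, 8 of opposite sign and 1 listed at exactly 0. The 22 include AT4G24210, the F-box gene matched by the symbol SLY1, which is among the 3 negative on both. The median and counts of the 22 therefore include a gene that is not a trafficking gene. Of named genes 41.9% were positive on both arrays, 17.0% negative on both and 38.5% of opposite sign. The median of the 22 was 0.04, or -0.05 with centring. Limma called 0 of 22, and 0 of 22 passed 1.5-fold on both arrays in the same sign, against 2.56% of named genes. Before adjustment 3 of the 22, ARLA1A, EXO84B and CCZ1B, had a p under 0.05, against 6.54% of named genes. AP2M (AT5G46630), the medium subunit of the clathrin adaptor AP-2, was the highest, with 1.02 on replicate 1 and 0.31 on replicate 2. Its mean of 0.67 ± 0.50 (SD, n = 2) had a limma p of 0.067 and an adjusted p of 0.665.

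The ARL GTPases of the list, small GTPases related to ARF, differed among themselves. ARLA1A had 0.59 on replicate 1 and 0.46 on replicate 2, ARLA1B had 0.25 and 0.09, and ARLA1D had -0.70 and 0.44, while ARLA1C was listed at 0 on both arrays. ARFA1D, an ARF GTPase of vesicle coats, had -0.17 and 0.08, and AP4M, of the adaptor AP-4, had -0.40 and 0.41.

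ECH (ECHIDNA), a protein of the trans-Golgi network that the list placed with the tethers, had 0.57 on replicate 1 and 0.22 on replicate 2. MAG2, a tether at the endoplasmic reticulum needed for the export of seed storage proteins, had 0.17 and 0.19. Both were positive on both arrays, as were 41.9% of named genes, while CLUB, of the TRAPPII tether, had 0.16 and -0.11. In endocytosis TPLATE stood at 0.16 and -0.02 and the dynamin-like gene DL1B at 0.13 and -0.21. The lists of ARF regulators and of vacuolar sorting receptors had 0 named genes.

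The intervals show what 2 arrays could resolve. For all 26 genes limma's 95% interval of the mean ratio held 0. Its half-width ran from 0.37 to 1.25, with a median of 0.43. For 23 of the 26 genes the interval lay within 2-fold of equal in both directions, and the other 3 were VPS9B, PRA1.F4 and SEC5B. The interval of VPS9B ran from -0.78 to 1.71, that of PRA1.F4 from -0.86 to 1.45 and that of SEC5B from -1.25 to 0.83. For PRA1.A3, the closest to the test's limit, it ran from -0.02 to 0.72. These intervals are not adjusted for the number of genes, and a mean ratio smaller than its half-width could not be told from 0. An exact sign permutation test of 1 gene over 2 arrays cannot give a two-sided p below 0.5.

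**Figure D4:**
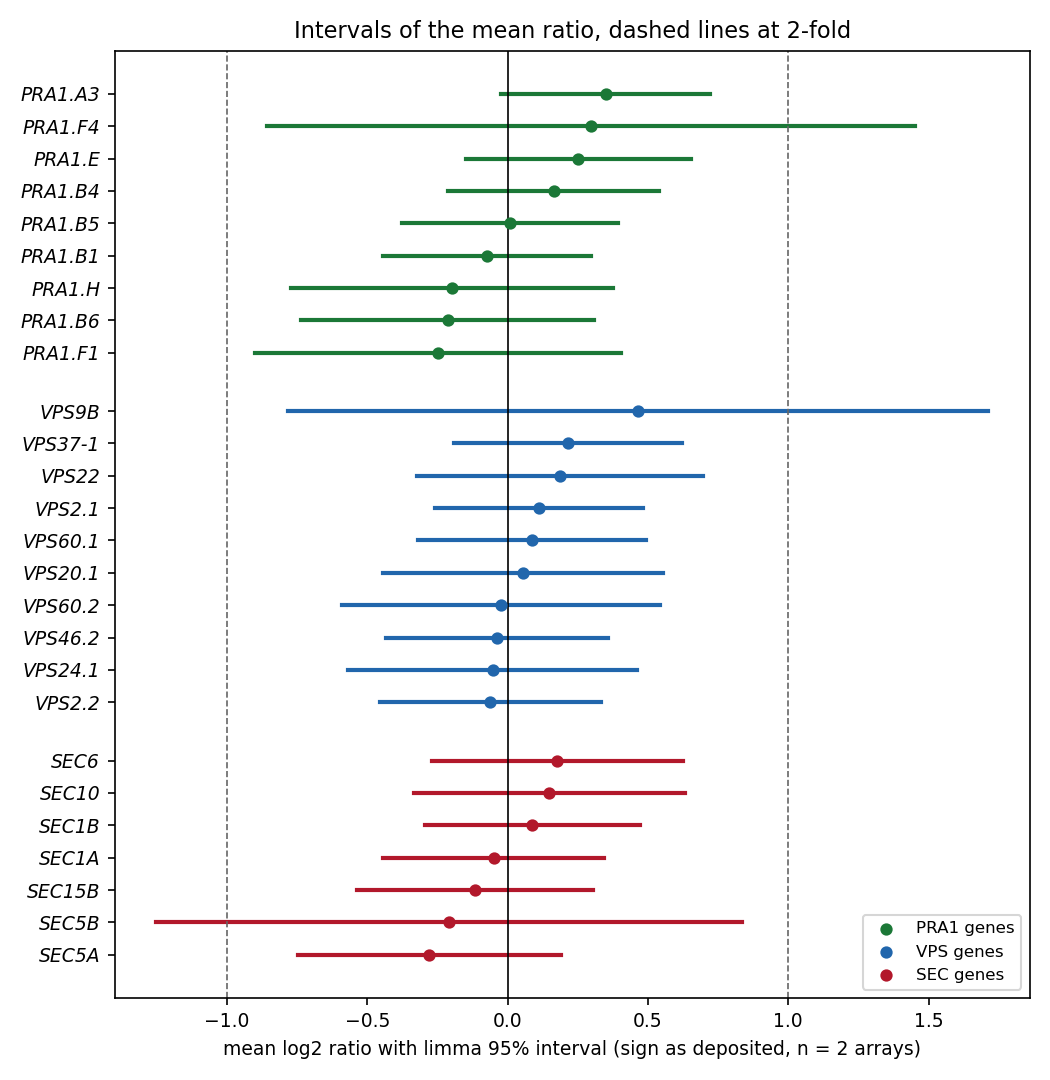
Mean log2 ratio (points, x axis, sign as deposited, n = 2 arrays) with limma's 95% interval (bars) for each of the 26 trafficking genes (PRA1 green, VPS blue, SEC red), with dashed lines at 2-fold. Every bar crosses 0, and the bars of VPS9B, PRA1.F4 and SEC5B pass a dashed line.

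Of 38 symbols of markers of the silique's tissues, 12 had a named gene, and limma called 0 of the 12. Before adjustment 2 of the 12, AGL62 and PER36, had a p under 0.05, against 6.54% of named genes. The means of the 3 endosperm markers were negative, from -0.66 to -0.09, with a median of -0.39, or -0.49 with centring. Of the 3, 2 were negative on both arrays, and PHE2 had -0.79 on replicate 1 and 0.0011 on replicate 2. AGL62, a MADS-box gene that delays endosperm cellularization, was the lowest, at -0.41 on replicate 1 and -0.91 on replicate 2. The means of the 3 seed coat markers were positive, from 0.05 to 0.42, with a median of 0.09 that became -0.0011 with centring. Only 1 of the 3 was positive on both arrays. DFR had -0.09 on replicate 1 and 0.27 on replicate 2, and BAN had 0.29 and -0.19. PER36 (AT3G50990), a peroxidase gene of the seed coat, was the highest, at 0.43 on replicate 1 and 0.42 on replicate 2. The means of the 4 green fruit wall markers ran from -0.49 to 0.14 and those of the 2 storage markers from -0.13 to 0.19. The part of tissue composition in the ratios of the trafficking genes was not tested.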

How the data were processed

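Per the submitters' processing notes the arrays were read with Agilent Feature Extraction 7.1.1. The authors deposited 1 log ratio per probe and array, taken here as a log10 ratio because the values are signed and in that software's form; the base is not written in the file. The method of background correction and dye normalization is not given in the sources used here. Values were put on the log2 scale with no further normalization. Of 21500 probes, 8893 had 1 gene name in the platform annotation of 2007, updated by gene ID to TAIR10.1 symbols, 39 had several and 12568 were unnamed. Probes of a gene were averaged, giving 21426 rows. For the 26 trafficking genes, 18 of 27 probes were tied to a RefSeq transcript, and 18 of these 18 transcripts belong to the same gene in the gene table; 0 probes had a value of exactly 0.

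Rows were tested with limma 3.58.1 in R 4.3.3 (intercept only, eBayes, two-sided, threshold 0.05 after Benjamini-Hochberg adjustment); each had 1 residual degree of freedom, to which 1.97 were added. The number of arrays limits the precision. The code was tested on simulated data. Members and lists were chosen with earlier results of these data known. Every member was named by its symbol; full statistics went to the highest and lowest mean of each family and to members 1.5-fold from equal on both arrays, of which there were 0, and the furthest of the other trafficking genes were named. The list symbol CHC1 matched a chromatin gene and not clathrin, and was left out. The list symbol SLY1 matched an F-box gene and not the SM protein, and was kept in the counts of other trafficking genes. Alternatives were centring, scaling, dropping zeros, single probes, robust or no moderation, other thresholds, single arrays and a base of 2.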

Additional observations from a re-analysis of the deposited data

How the results depend on the processing

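The count of 0 trafficking genes called by limma held with centring, scaling, values of exactly 0 left out, each probe alone, robust eBayes, no moderation and an adjusted p under 0.10; the smallest adjusted p among the 26 genes ran from 0.546 to 0.808 over the refits. At an unadjusted limma p under 0.05 the count was 1 of 26 with centring (SEC5A) and 1 of 26 with scaling (PRA1.A3). The share of named genes was not counted in these refits. It was 6.54% in the main fit. The 0 calls also held where dropping zeros gave 55 calls over all rows. The count of 0 genes past 1.5-fold on both arrays in the same sign became 1 at 1.2-fold. With 1 array left, where no agreement of sign is asked, it was 1 without replicate 1 (SEC5B) and 2 without replicate 2 (VPS9B and PRA1.F4). It was 0 at 2-fold, with base 2 and with 9 genes named by synonym added (35 genes), an alternative chosen after seeing the data. The median of 0.03 was -0.0090 without replicate 1 and 0.14 without replicate 2, and -0.06 with centring. Centring turned the sign of 4 of 26 means: PRA1.B5 to -0.082, SEC1B to -0.0029, VPS60.1 to -0.0051 and VPS20.1 to -0.035. By construction it lowers each mean by 0.09. Scaling turned 0 of 26. No paired analysis was possible because both arrays belong to 1 group, and each ratio already sets both genotypes side by side. Signal over background could not be examined, since the table holds ratios without intensities.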
